A study of Gallus gallus with 16 samples.

Results

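Gene expression in the chicken embryonic pituitary was compared between embryonic day 17 (E17) and embryonic day 10 (E10), the oldest and youngest glands of a series that also sampled E12 and E14. The comparison uses 8 of the 16 arrays, 4 per age, and was made probe by probe over the 7192 of 7200 rows that held a value on at least 3 of the 4 arrays at both ages. Of the 8 rows left out, 6 had no value at either age. Each replicate was whole-gland RNA from a pool of embryos, 16 per pool at E10 and 2 at E17, so an E17 value averages far fewer embryos; no strain, sex or treatment is given. Amplified RNA of each pool was labelled with Cy3 and hybridised beside a Cy5-labelled reference made from equal amounts of all 16 amplified samples. In RNA of whole glands, a change in the number of cells of a type cannot be told apart from a change in RNA per cell.

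The anterior pituitary forms its hormone cells in a set order during embryonic life. The study's title names 3 of these lineages: thyrotrophs, which make thyrotropin and so drive the thyroid; somatotrophs, which make growth hormone; and lactotrophs, which make prolactin. In the chick, somatotrophs and lactotrophs become abundant late, towards hatching, and adrenal glucocorticoids and thyroid hormone are known to bring somatotrophs forward.

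Results are given by probe, the row number in the deposited table. The annotation used here names 54 rows, all as STUB1, which marks chaperone-bound proteins for degradation, and leaves 7146 unnamed, so the glands were not checked against hormone or other marker genes. Of the 54, 1 rose and 4 fell, or 9.26%, against 16.9% of all tested probes. Their differences ran from -0.70 to 1.13 around a median of -0.00445, so the 54 rows did not move as 1 transcript and no change is given for the gene.

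Values are the authors' log ratios of sample over reference pool, read on a log2 scale. The deposited arrays had been centred and scaled: the 8 arrays had means between -0.003325 and 0.001184. Their medians lay between -0.002432 and 0.03568 and their SDs between 0.2612 and 0.2614. Differences are therefore differences of scaled log ratios, and no fold change is given. Which dye formed the numerator is not stated in the labels. Because the pool held all samples in equal parts, the mean over the 4 ages of the linear ratio should vary little between probes; over the 154 probes past the adjusted p threshold with a difference of at least 1 its median was 0.936 as read, with a spread of 0.11 in log2 units (SD), and 1.25 with a spread of 0.29 once the sign was turned. This check takes the scaled values as log2 ratios of unknown original scale, over probes chosen by their difference, so it does not settle the direction. The direction as read was kept. Were the sign the other way, every rise and fall given here would be reversed. E10 and E17 arrays correlated negatively across probes, at r = -0.37 to -0.19 over 16 pairs. Ages on opposite sides of a common pool can correlate negatively; turning every sign leaves r as it is, so r does not bear on the direction. The original scale and the log base remain unknown.

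From E10 to E17, 479 probes rose and 740 fell, which is 6.66% and 10.3% of those tested and 16.9% together (limma, Benjamini-Hochberg adjusted p under 0.05, fitted on all 16 arrays). Decreases were the more numerous and increases the larger. Of all tested probes, 3347 (46.5%) had a higher mean at E17 and 3845 a lower one. Array means were all near 0 in the deposited scaling, so the numbers and sizes of increases and decreases are not independent of each other. The middle 50% of the increases lay between 0.46 and 1.08, and that of the decreases between 0.36 and 0.57. In the deposited scaling, 23 probes rose by 2 or more in scaled log ratio and the largest decrease was 1.83. Quantile normalization narrowed this contrast: 13 increases and 2 decreases, of probes 4970 and 171, were of at least 2, and 107 increases and 24 decreases of at least 1. Between 1 and 2 there were 119 increases and 12 decreases, between 0.5 and 1 there were 193 and 271, and below 0.5 there were 144 and 457. Of the 100 largest differences among all tested probes, 95 were increases (82 after quantile normalization), and all 100 passed the threshold.

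The balance of directions followed the strictness of the threshold. At an adjusted p under 0.01 there were 363 increases and 389 decreases, and under 0.001 there were 259 and 157. With the requirement that a difference be larger than 0.5, 141 probes rose and 17 fell (limma's treat, adjusted p under 0.05; 1.96% and 0.236% of those tested, 2.2% together); after quantile normalization these counts were 111 and 23. The smallest differences past the main threshold were 0.25 for an increase and 0.21 for a decrease. With a median standard error of 0.12, 41 of the 659 probes with a difference of at least 0.5 missed it. The largest that did was a decrease of 1.14 (SE 0.45, limma adjusted p = 0.0988).

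**Figure D1:**
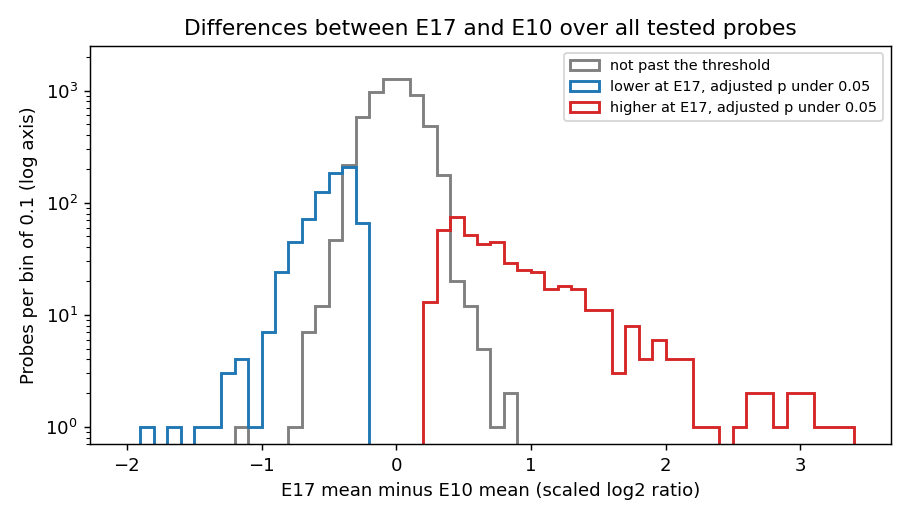
Number of probes (vertical, log axis) by the difference between the E17 and E10 means (horizontal, scaled log2 ratio, bins of 0.1), for probes that rose (479), fell (740) or did not pass the threshold. In the deposited scaling the increases reach 3.33 and the decreases end at 1.83 below 0; after quantile normalization the ends were 2.94 and 2.41.

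The 2 probes that rose most took different courses between the end points. Probe 1621 stood at -1.79, -1.69, -1.62 and -1.78 on the 4 E10 arrays and at 1.87, 1.66, 1.75 and 1.17 on the 4 E17 arrays. The lowest E17 array was 2.79 above the highest E10 array. The difference was 3.33 (SE 0.20, limma adjusted p = 8.32e-09), and it also passed the test against 0.5 (adjusted p = 5.99e-08). Its means at the middle ages were no higher than at E10, with -2.22 ± 0.10 at E12 and -1.86 ± 0.57 at E14 (SD, n = 4). At E14, replicates 2 and 4 were both at -2.34, while replicates 1 and 3 were at -1.58 and -1.20.

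Probe 4935 stood at -1.81, -2.11, -2.25 and -2.31 at E10 and at 0.86, 1.27, 1.02 and 1.23 at E17. The ages were 2.67 apart at their nearest arrays. The difference was 3.22 (SE 0.24, limma adjusted p = 8.86e-08). Unlike probe 1621, it had covered 68.8% of the difference by E14, with 0.37, 0.47 and 0.30 on replicates 2 to 4 and -0.77 on replicate 1. At E12 it stood between -2.14 and -1.04, which overlapped E10.

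Both leading decreases had covered less than 50% of their difference by E14. Probe 4970 stood at 0.54, 0.68, 0.48 and 0.77 at E10 and at -1.14, -1.31, -1.08 and -1.33 at E17. It fell by 1.83 in scaled log ratio (SE 0.15, limma adjusted p = 3.12e-07), with 1.56 between the nearest arrays of the 2 ages. By E14 its mean, 0.04 ± 0.27 (SD, n = 4), had covered 31.7% of that difference.

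Probe 171 had the tightest E17 replicates of the 4 named probes, at -1.067, -1.003, -1.038 and -1.011. At E10 it stood at 0.62, 0.45, 0.75 and 0.59. It fell by 1.63 (SE 0.10, limma adjusted p = 1.23e-08), passing 0.31 ± 0.20 at E12 (SD, n = 4) and -0.21, -0.20 and -0.14 on the 3 E14 arrays with a value. Its values at the 4 ages did not overlap between E12 and E14 or between E14 and E17, but those of E10 and E12 did. The 4 probes kept a limma adjusted p of at most 2.74e-05 in every alternative tried.

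**Figure D2:**
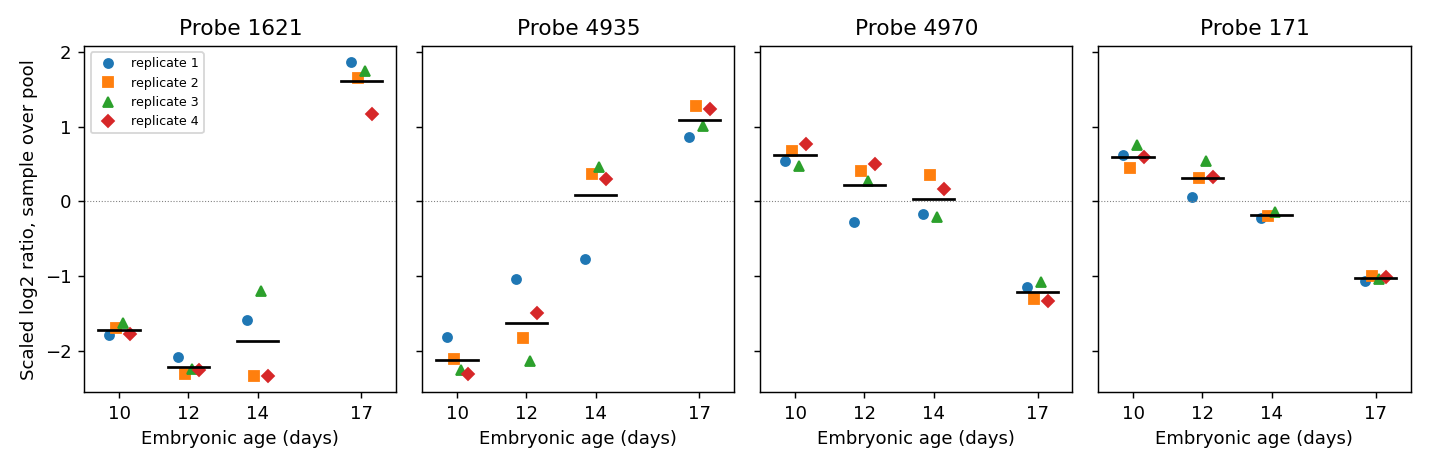
Scaled log2 ratio (vertical) of the 2 probes that rose most and the 2 that fell most, on each of the 16 arrays by embryonic age in days (horizontal); symbols mark replicates and bars the mean of an age. Probe 1621 lies between -2.34 and -1.20 on the E14 arrays, whereas probe 4935 is above 0 on 3 of the 4 E14 arrays.

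Separation of the arrays was also read without a model. Every E17 array lay above every E10 array for 772 probes (10.7%) and below for 1131 (15.7%), 26.5% of those tested. Among the probes past the threshold this held for 464 of the 479 increases and 694 of the 740 decreases. These probes were called for a difference between the same arrays, so their separation follows largely from the calling. A further 308 probes lay above and 437 below without overlap but did not pass the threshold.

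Each array was also placed with the probes called without it. For an array left out, probes were called from the other 15, and it was noted on which side of the midpoint between the remaining E10 and E17 means the array lay. E10 arrays lay on their own side for 95.5 to 97.1% of the increases and 88.9 to 96.6% of the decreases. E17 arrays did so for 89.3 to 95.1% of the increases and 83.4 to 94.2% of the decreases. The lowest figures at E17 were those of replicate 3 for increases, 89.3%, and of replicates 2 and 3 for decreases, 83.4% and 84.0%. The same share over all tested probes was not counted, so these figures have no base share beside them.

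The replicates of both ages were close together over the changed probes as a whole. The mean of the 479 probes that rose was between -0.55 and -0.49 on the E10 arrays and between 0.30 and 0.39 on the E17 arrays. That of the 740 probes that fell was between 0.16 and 0.23 at E10 and between -0.33 and -0.27 at E17. The distance between the ages follows from how the probes were called, and calling also favours probes whose replicates lie close together. Averaging over many probes narrows the spread between arrays as well. Within single probes, replicates differed more at E17 than at E10: the median SD was 0.145 against 0.114 in the increases, with the larger SD at E17 in 313 of 479 (65.3%), and 0.115 against 0.103 in the decreases, with the larger at E17 in 409 of 740 (55.3%). The E17 median was above that of E10 over all tested probes too, so this is not particular to the changed probes. The share of all tested probes with the larger SD at E17 was not counted. Over all tested probes the medians were 0.136 at E17 (2 embryos per pool), 0.114 at E10 (16), 0.165 at E12 (8) and 0.186 at E14 (4). The spread was largest at E14, not in the smallest pools. In the mean of the increases, E14 replicate 1 stood at -0.13, against 0.06 to 0.13 on the other E14 arrays. In the mean of the decreases it was close to replicate 3, at -0.157 and -0.155. No E14 median SD without replicate 1 is given. Each age had its own pool size, so age and pool size cannot be told apart.

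The probes that changed between the end points were then followed through the middle ages, whose arrays add nothing to the difference by which they were called. The mean of the increases began at -0.52 ± 0.03 and went through -0.29 ± 0.07 at E12 and 0.04 ± 0.12 at E14 to 0.35 ± 0.04 (SD between the 4 arrays of an age, each averaged over 479 probes). The mean of the decreases went from 0.20 ± 0.03 to 0.04 ± 0.07, -0.09 ± 0.08 and -0.29 ± 0.03 (740 probes). The median increase had covered 33.4% of its difference at E12 and 69.6% at E14, and the median decrease 33.6% and 62.1%. More than 50% of the difference came after E14 in 118 increases (24.6%) and 245 decreases (33.1%). The means and the percentages are set against the E10 and E17 values by which the probes were called. That the middle ages lie between these ends therefore follows in part from the calling.

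**Figure D3:**
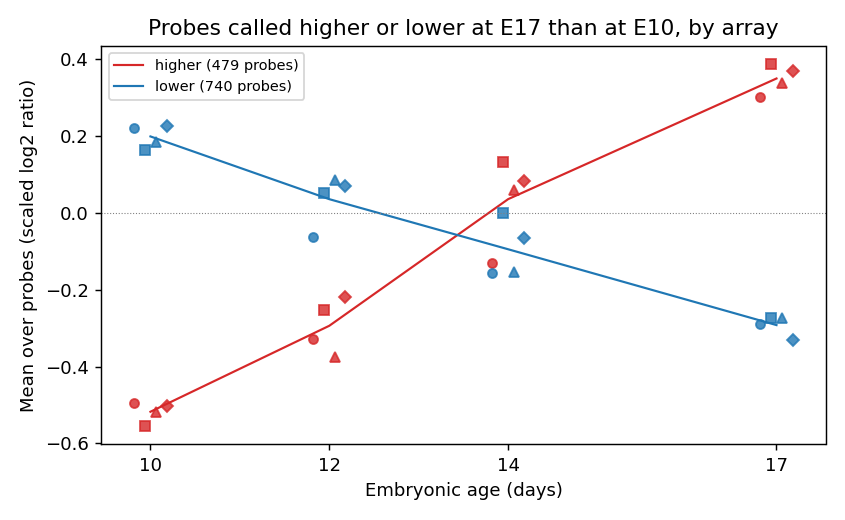
Mean scaled log2 ratio (vertical) over the 479 probes that rose and the 740 that fell between E10 and E17, on each array by embryonic age in days (horizontal); symbols (circle, square, triangle, diamond) mark replicates 1 to 4 of an age and lines join the age means. The increases cross the level of the pool at about E14, where replicate 1 is lowest at -0.13, and the decreases cross it between E12 and E14.

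The step from E12 to E14 rests on arrays of which none entered the E17 minus E10 difference, apart from their part in the estimate of each probe's variance. Of the 479 increases, 435 (90.8%) were higher at E14 than at E12, against 44.3% of all tested probes. Of the 740 decreases, 624 (84.3%) were lower at E14, against 55.7% of all. The median change over this step was 0.27 in the increases and -0.12 in the decreases. By size of the overall change, the share was 84.7% in increases below 0.5, 91.2% between 0.5 and 1, 96.6% between 1 and 2 and 95.7% (22 of 23) from 2 up. In decreases it was 80.3% below 0.5, 90.4% between 0.5 and 1 and 12 of 12 above 1. With the probes called from the E10 and E17 arrays alone, 662 increases and 989 decreases, the shares were 82.5% and 81.3%. Leaving E14 replicate 1 out of both the calling and the E14 means gave 85.2% and 77.2%, against 90.8% and 84.3% with it. The shares over all tested probes given here use the full E14 means, so those 2 figures have no matching base share.

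A steady course was not the rule for every probe. The 4 age means lay in strict order in 300 increases (62.6%) and 534 decreases (72.2%). In 90 increases (18.8%) the E12 mean was below the E10 mean, so that the probe was lowest after the start, whereas in 55 decreases (7.43%) the E12 mean was above it. In 56 increases and 39 decreases the E14 mean lay beyond the E17 mean. These orders were read from the means without a test of each step. Over all tested probes, the share in order was not counted, nor were the shares with E12 beyond E10 or E14 beyond E17. The contrast of increases with decreases in these counts therefore has no base beside it, and the calling already sets E10 and E17 apart.

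The 23 probes that rose by at least 2 had, in the median, covered less of their difference by E12 than the smaller increases. Their median position at E12 was 1.2% of the way from E10 to E17, and 11 of them stood lower at E12 than at E10. The 119 increases between 1 and 2 had covered 34.8% by then in the median, though 24 of them also stood lower at E12 than at E10. At E14 the 23 fell into 2 sets with nothing between 25% and 50%: 7 probes had covered -4.42 to 21.3% of the difference, and 16 had covered 50.4 to 75.4%. Probe 1621 belongs to the first set and probe 4935 to the second. The division was made on these values and is a description. Smaller increases were not divided in this way.

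The 7 late probes averaged -1.32 ± 0.13, -1.47 ± 0.10, -1.17 ± 0.23 and 1.23 ± 0.20 at the 4 ages from youngest to oldest (SD over 4 arrays). The other 16 averaged -1.67 ± 0.09, -1.48 ± 0.16, 0.04 ± 0.58 and 0.93 ± 0.08. The wide spread of the 16 at E14 came from replicate 1, at -0.81 against 0.15 to 0.49 on the other arrays; it was the lowest E14 array in 15 of the 16 probes. Without it the 16 averaged 0.33 ± 0.17 at E14 (SD, n = 3) and had covered 51.5 to 88.4%, while the 7 had covered -7.25 to 22.7%, so the gap between the sets did not depend on that array. In the 7 late probes replicate 1 was not apart, at -1.06 within a range of -1.49 to -0.96.

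**Figure D4:**
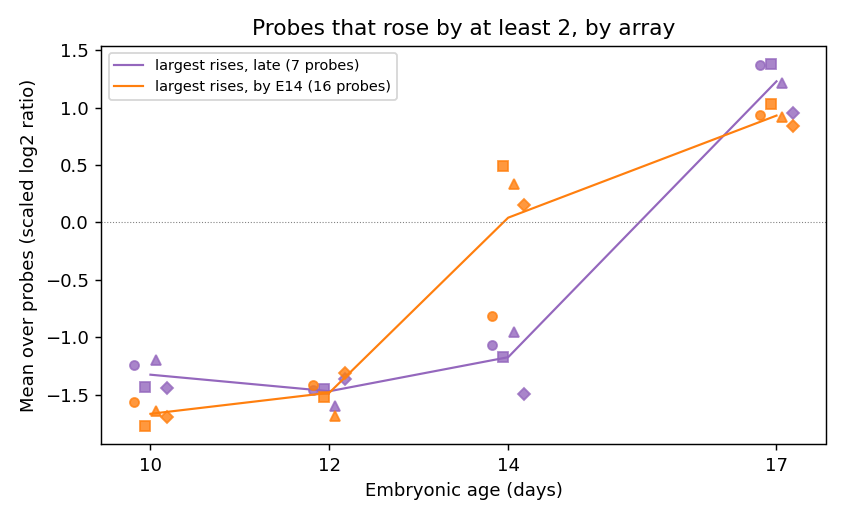
Mean scaled log2 ratio (vertical) of the 7 probes that rose by at least 2 with 21.3% or less of it by E14 and the 16 that rose by at least 2 with 50.4% or more of it by E14, on each array by embryonic age in days (horizontal); symbols (circle, square, triangle, diamond) mark replicates 1 to 4 and lines join the age means. E14 replicate 1 (circle, -0.81) lies between the sets in the 16 probes.

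Changed probes were unevenly placed in the table. In 16 stretches of 450 rows the share past the threshold ran from 7.13 to 26.4%. The first 3600 rows held 829 of 3597 tested probes past it (23.05%). In the last 3600 rows the low stretches resolved, in blocks of 225 rows, to 4 blocks in which hardly any probe changed: the 20th, 24th, 28th and 32nd, with 0 to 3 probes each, 8 of 898 in all (0.891%; 4 higher and 4 lower, none by more than 0.59). The other 28 blocks held 12.4 to 32.9%. Outside the 4 blocks, the last 3600 rows had 382 of 2697 (14.2%). The block size and the 4 blocks were chosen from these counts, so no test is given.

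The 4 blocks stood apart within each age as well. Between arrays of 1 age, values correlated across their 898 probes with a median r of 0.04 at E10 (-0.02 to 0.14, 6 pairs) and 0.04 at E17 (-0.02 to 0.16). Over the 6294 probes of the other blocks the medians were 0.67 at E10 (0.62 to 0.72) and 0.58 at E17 (0.45 to 0.65), and E10 and E17 arrays correlated at -0.45 to -0.22. Changed probes lie away from the pool at both ages and so raise such correlations. Among probes that did not pass the threshold the medians were 0.28 at E10 and 0.34 at E17 over 5083 probes of the other blocks, against 0.03 and 0.04 over 890 of the 4 blocks. Replicates of a probe also varied more in the 4 blocks, with a median SD of 0.178 at E10 and 0.201 at E17 against 0.107 and 0.129. Differences between probes of the 4 blocks were thus hardly repeatable between arrays of the same age, and what these rows carried is not stated in the labels. The end of each block just before them was also poor in changes: 7 of 240 probes in the last 60 rows (2.92%) against 119 of 657 (18.1%) in the rows before. These rows were placed by the 4 blocks, which were chosen from the counts, so no test is given here either. With the 4 blocks left out of the fit, 506 probes rose and 801 fell, and the share past the threshold among the other 6294 probes in the fit of all probes was 19.2%.

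**Figure D5:**
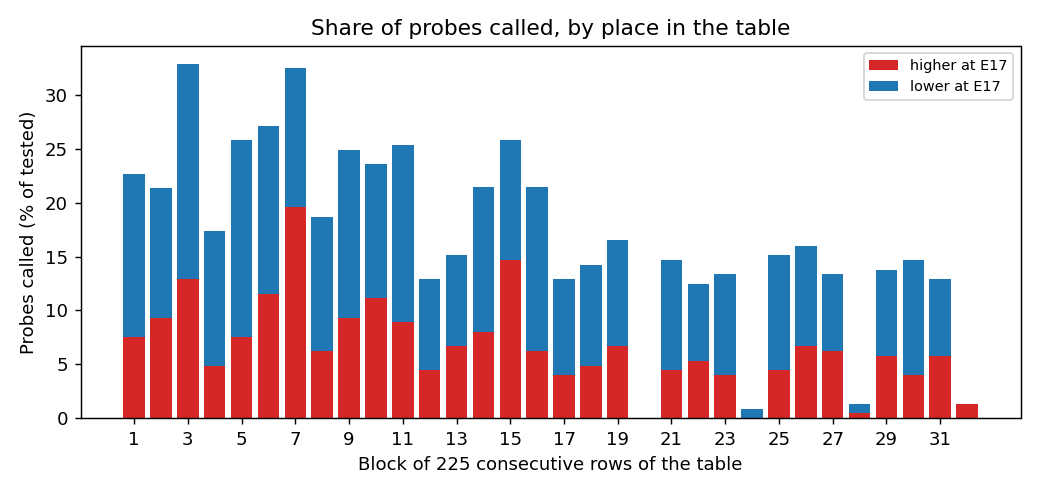
Share of tested probes (vertical, %) that rose or fell between E10 and E17 in each of 32 blocks of 225 consecutive table rows (horizontal). Blocks 20, 24, 28 and 32 hold at most 1.35%, against 12.4 to 32.9% elsewhere.

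Neighbouring rows were otherwise unlike. The difference of a probe and that of the next row correlated at r = -0.0043, and over all distances from 1 to 3600 rows r stayed between -0.06 and 0.06, so no fixed spacing of repeated probes showed.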

How the data were processed

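RNA of 16 chicken embryonic pituitary pools was measured on 2-colour cDNA microarrays against 1 reference pool, per the labels. The deposited values are the authors' log ratios, read as log2, 1 per row and array; how images were read, corrected, normalized and filtered is not given in the sources used here, and scanner intensities were not analysed here. E10 arrays held 7175 to 7186 values and E17 arrays 7171 to 7194. Of the tested rows, 7092 had all 8 values, 98 had 7 and 2 had 6; missing values were not imputed.

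Differences were fitted in R 4.3.3 with the lmFit and eBayes functions of limma 3.58.1 (a mean per age, all 16 arrays, Benjamini-Hochberg adjustment over 7192 rows), and the script was tested on simulated data. The number of arrays, 4 per age, limits the precision. The labels call the samples biological replicates. They give no slide or scan batch. With rows unnamed, the rule for named probes was the 2 largest rises and 2 largest falls past the threshold; the fixed marker genes could not be looked up. Rule, comparison and alternatives were chosen with earlier results of these data known. Same-numbered E10 and E17 arrays had deviations from their age means correlated at -0.02, 0.07, 0.11 and 0.06, and the number was not taken as a pairing. No correlations of differently numbered arrays are given beside these. With the number as a term in the fit, 1443 probes passed the threshold, against 1219 without it. Whether same-numbered arrays share variation was not tested.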

Additional observations from a re-analysis of the deposited data

Results flagged for a closer look

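In 23 groups of 4 arrays (the 4 named probes and the means of the probes that rose or fell, at each age), a single array stood far from its group in 1; chance flags about 1 group in 20. It was E14 replicate 1 for probe 4935, at -0.766 against 0.30 to 0.47 on the other E14 arrays. The array takes no part in the E17 minus E10 difference of that probe, which stayed between 3.15 and 3.32 with each of the 16 arrays left out.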

How the results depend on the processing

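Counts of probes past the threshold changed by over 1.5 times under 1 alternative. Array weights gave 1920 such probes, 734 higher and 1186 lower, and included all 1219 of the main result. A fit of the E10 and E17 arrays alone gave 1651, and moved the shares of increases and decreases that went the same way from E12 to E14 to 82.5% and 81.3%. A replicate block (the replicate number as a term) changed no call of the named probes; there were 1443 probes (546 higher, 897 lower), of which 1210 were among the 1219. With array medians subtracted there were 512 increases and 629 decreases, so the surplus of decreases was smaller. Quantile normalization moved probes 4970 and 171 to -2.41 and -2.14 and probes 1621 and 4935 to 2.94 and 2.87. It also changed some counts by size by over 1.5 times. Increases of at least 2 went from 23 to 13, and decreases of at least 1 from 12 to 24. Leaving out 1 array gave 937 to 1332 probes (411 to 526 higher, 526 to 806 lower), 131 to 174 beyond 0.5, and 2099 to 2468 without overlap, where fewer arrays make separation easier; the 2 shares ran from 85.2 to 93.9% and from 77.2 to 88.2%. Of the 1219 probes, 816 stayed past the threshold with every array left out in turn, 381 increases (79.5%) and 435 decreases (58.8%). The counts by size under other scalings, the fit without the 4 blocks, its neighbour correlation, and the runs with 1 array left out for the counts beyond 0.5 and without overlap were chosen after seeing the data. None of the 1219 probes passed the threshold in the opposite direction in any of these fits. The other alternatives gave 1194 to 1307 probes.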
